A study of Mus musculus with 16 samples.

Results

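The genes described are 45 interferon-stimulated genes, taken from the 54532 rows of the gene table by exact match of the gene symbol. Each symbol matched 1 row, and all 45 passed the filter on low counts, among 12496 genes tested. RNA was sequenced from microglia, the macrophages that live within the retina, of Cx3cr1CreERT2:Rosa26-tdTomato reporter mice at postnatal day 17. The 16 libraries comprised 8 of oxygen-induced retinopathy (OIR), a model in which oxygen exposure of pups leads to vessel loss and then to abnormal retinal vessels, and 8 without it (nonOIR). By the lane code in the labels, each group had 5 libraries in one lane and 3 in another. Mice of both groups carried the tamoxifen-inducible Cre under control of Cx3cr1 and the tdTomato reporter, and received 5 µl of tamoxifen at 21 mg per ml under the skin on postnatal day 1. The gate, the same in both groups, took CD45-low cells with CD11b and tdTomato that lacked Ly6C and Ly6G. The reporter marks any cell that used Cx3cr1 when tamoxifen was given and its descendants. Neither the number of animals behind a library nor their independence is stated in the labels, and the p-values therefore refer to variation among these samples, some of which may be technical.

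Interferons are secreted proteins that warn cells of viral or misplaced nucleic acids. Type I interferons bind the receptor made of IFNAR1 and IFNAR2, and the kinases JAK1 and TYK2 then activate STAT factors, which with IRF9 bind an element called the ISRE in the promoters of responding genes. Interferon gamma acts through its own receptor and STAT dimers, which bind the GAS element. The induced genes encode sensors of foreign RNA and DNA, enzymes and membrane proteins that block viral replication, and factors that amplify or end the signal. Microglia respond to interferon in viral infection, injury and degeneration.

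Library totals ran from 20.8 to 30.0 M counts in OIR and from 13.6 to 28.0 M in nonOIR. Of 8 microglial markers 3 fell in OIR and 0 rose, and the 5 not called (Csf1r, Sall1, Fcrls, Cx3cr1 and Siglech) had log2 fold changes from -0.44 to 0.06. P2ry12 and Tmem119 were among those that fell, without overlap between the groups. P2ry12 ranged over 9538 to 12492 CPM in nonOIR and 4494 to 8973 in OIR (adjusted p = 0.000617), and Tmem119 over 4121 to 5117 and 1883 to 3440 (adjusted p = 0.000550). CPM stands for a count scaled to a common library size, after TMM adjustment of the library sizes. In sorted cells measured in bulk, fewer cells of a type and less RNA per cell cannot be told apart. The part of this fall in the changes of the interferon-stimulated genes was not tested.

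In OIR, 23 of the 45 interferon-stimulated genes rose and 0 fell, in edgeR's quasi-likelihood test at an adjusted p under 0.05. Over all genes tested, 6.39% rose and 4.56% fell. No member was lower at an unadjusted p under 0.05 (0 of 45), and DESeq2 called 26 higher and 0 lower, where it called 8.64% of all genes higher and 6.23% lower. Under library-size scaling 1384 of 12496 genes were called, 73.7% of them higher in OIR, against 58.3% of the genes called under TMM scaling. The members called under library-size scaling numbered 26. The median log2 fold change of the 45 members was 0.83, against -0.03 over all genes tested, and 43 of 45 were positive. Of the 23 that rose, 13 were at least 2-fold higher and 10 less than 2-fold. In 5 members (Ifi27l2a, Oas1a, Zbp1, Ifi30 and Oasl2) every OIR library lay above every nonOIR library, which held for 1.34% of all genes. The reverse held for 0 members and 0.688% of all genes. The authors' deposited table gave 26 members an adjusted p under 0.05 and a positive fold change, including all 23 and also Rsad2, Cmpk2 and Slfn5.

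**Figure D1:**
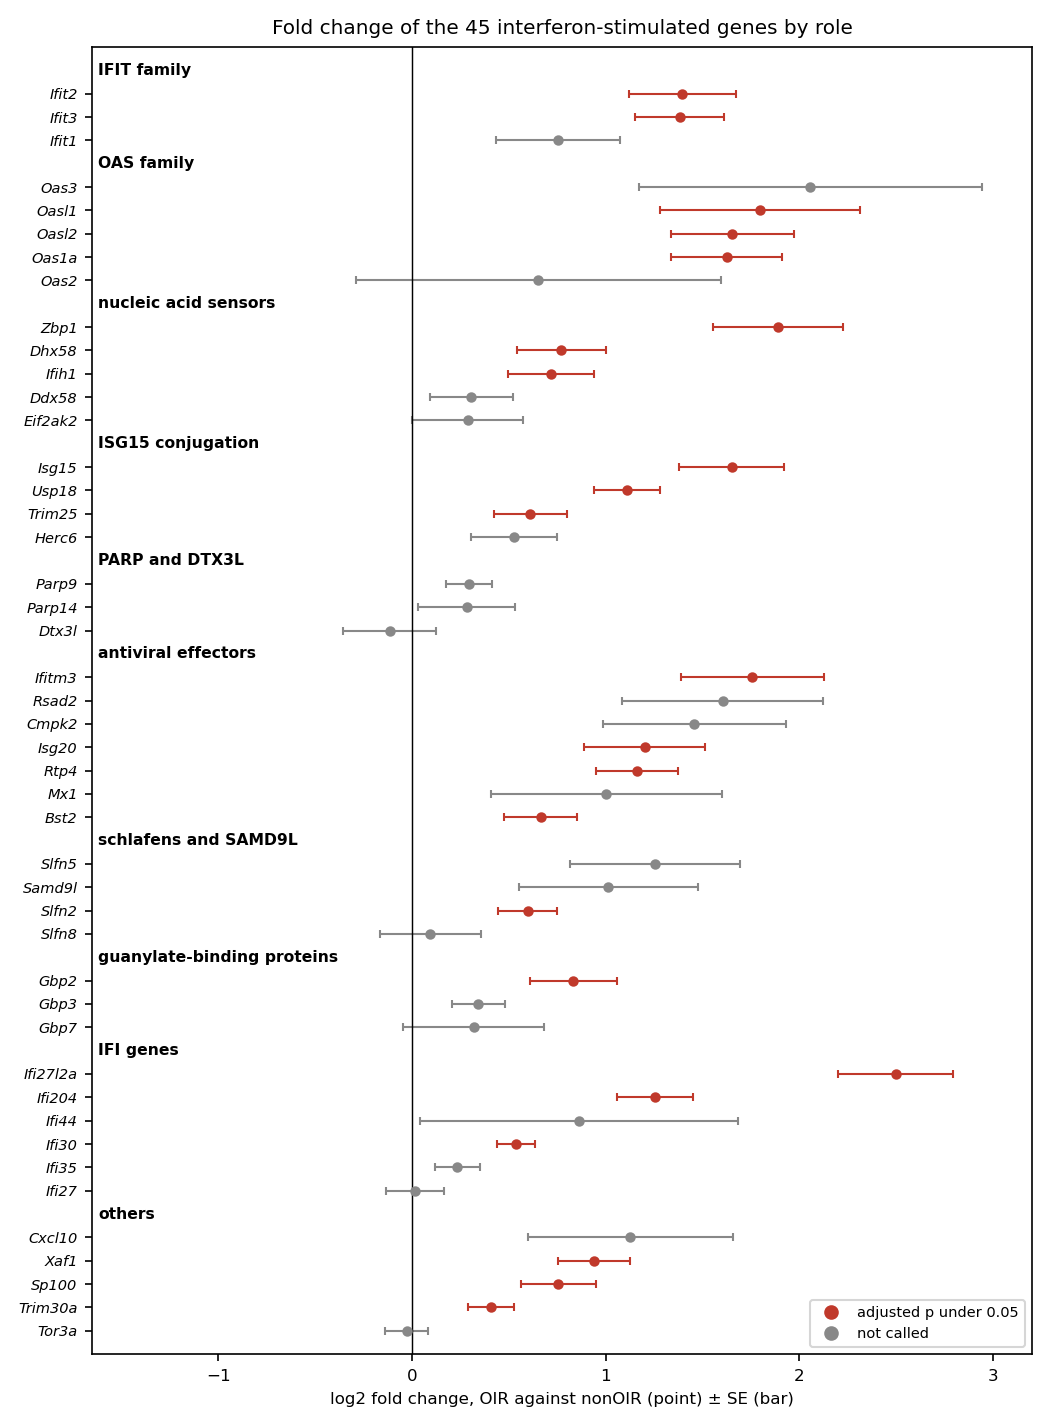
Log2 fold change of each of the 45 genes in OIR against nonOIR (x axis, point) with its standard error (bar), grouped by role on the y axis; red points passed at an adjusted p under 0.05 and grey points did not. The 23 red points all lie to the right of 0, and no gene of the PARP9, PARP14 and DTX3L group is red.

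Per kb of exon, the highest of the members were Ifi27l2a, Ifi30, Bst2 and Ifitm3, with OIR means of 388, 237, 178 and 160 CPM per kb. In nonOIR the order was Ifi30 at 163 CPM per kb, Bst2 at 112, Slfn2 at 77.9, Ifi27l2a at 68.8, Tor3a at 49.4 and Ifitm3 at 47.4. Ifi27l2a thus moved from the fourth to the highest of the 45. At the other end Oas3 stood at 0.0868 CPM per kb in nonOIR and 0.363 in OIR, and Oas2 at 0.312 and 0.492.

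Promoter sequence from RefSeq (build GRCm38.p6, 250 bases before to 50 after the start) was found by symbol for 33 of the 45 members. Oas2, Dhx58, Zbp1, Usp18, Parp9, Parp14, Mx1, Rtp4, Ifi27l2a, Ifi27, Ifi204 and Tor3a had no entry. The core of the ISRE was searched as GAAANNGAAA on both strands, with overlapping matches counted. It was present in the window of 18 of 33 members, against 3.99% of the 27025 genes with a window. Among matched members that rose 8 of 17 held it, and among those not called 10 of 16. The GAS letters TTCNNNGAA, which read the same on both strands, were in 8 of 33 members and 9.55% of all genes. The 150 bases just before the start are shown for 5 members, with ISRE cores in capitals. Isg15, Ifit3 and Oas1a are the matched members with the lowest p, Rsad2 has a core and missed the threshold, and Ifi30 rose and has no core in its window.
Isg15 (chr4:156200819-156200968, minus strand): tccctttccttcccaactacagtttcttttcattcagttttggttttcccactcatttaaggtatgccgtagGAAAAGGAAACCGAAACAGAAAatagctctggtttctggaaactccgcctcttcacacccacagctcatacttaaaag
Ifit3 (chr19:34583379-34583528, plus strand): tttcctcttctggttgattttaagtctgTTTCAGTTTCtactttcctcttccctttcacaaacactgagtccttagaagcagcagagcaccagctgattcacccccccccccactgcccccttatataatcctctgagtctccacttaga
Oas1a (chr5:120907526-120907675, minus strand): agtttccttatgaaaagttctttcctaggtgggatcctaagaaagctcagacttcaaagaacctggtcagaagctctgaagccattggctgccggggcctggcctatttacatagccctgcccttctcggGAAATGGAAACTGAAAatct
Rsad2 (chr12:26456453-26456602, minus strand): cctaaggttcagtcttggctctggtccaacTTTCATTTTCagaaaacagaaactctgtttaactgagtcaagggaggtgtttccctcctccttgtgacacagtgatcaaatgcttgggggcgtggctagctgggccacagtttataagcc
Ifi30 (chr8:70766664-70766813, minus strand): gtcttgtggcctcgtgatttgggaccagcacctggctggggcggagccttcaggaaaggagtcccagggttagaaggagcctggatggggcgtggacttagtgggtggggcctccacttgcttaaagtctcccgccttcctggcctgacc
In Isg15 the core occurs 3 times in a row, the nearest match beginning 66 bases before the start, and in Oas1a 2 times, the nearest beginning at 14 bases. A match is a description of letters, not a measured binding site.

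The IFI genes held both the largest rise and one of the smallest changes. Ifi27l2a, a small hydrophobic protein, ranged over 22.6 to 59.6 CPM in nonOIR (median 25.2) and 93.8 to 290 in OIR (median 145). The groups did not overlap, and the rise was 5.64-fold (log2 fold change 2.50 ± 0.30 SE, adjusted p = 0.000107). Its neighbour Ifi27, on the opposite strand of chromosome 12, ranged over 41.5 to 68.2 CPM in nonOIR and 29.9 to 71.6 in OIR. It was not called (log2 fold change 0.02 ± 0.15 SE, adjusted p = 0.963). Ifi204, a DNA-binding protein of the PYHIN family, ranged over 23.6 to 43.1 CPM in nonOIR (median 29.5) and 37.8 to 125 in OIR (median 76.1). Only OIR replicate 1 fell within the nonOIR range, and the rise was 2.38-fold (log2 fold change 1.25 ± 0.20 SE, adjusted p = 0.000617). Ifi30 encodes GILT, a lysosomal thiol reductase that helps prepare antigens. It ranged over 116 to 183 CPM in nonOIR (median 167) and 205 to 267 in OIR (median 234), a small rise without overlap (1.45-fold, log2 fold change 0.54 ± 0.10 SE, adjusted p = 0.00172). Ifi35 at 0.23 ± 0.12 and Ifi44 at 0.86 ± 0.82 (log2 fold change ± SE) were not called, and Ifi44 stayed below 10 CPM in every library.

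In the IFIT family, whose proteins bind viral RNA and hold back its translation, 2 of 3 rose. Ifit3 ranged over 8.65 to 20.6 CPM in nonOIR (median 13.3) and 18.2 to 52.4 in OIR (median 37.2), and OIR replicate 5 alone lay within the nonOIR range. The rise was 2.605-fold (log2 fold change 1.38 ± 0.23 SE, adjusted p = 0.000889). Ifit2 ranged over 4.00 to 30.3 CPM in nonOIR (median 18.1) and 27.8 to 70.3 in OIR (median 51.2), again with OIR replicate 5 lowest, and rose 2.63-fold (log2 fold change 1.39 ± 0.28 SE, adjusted p = 0.00334). Ifit1 ranged over 3.22 to 19.3 CPM in nonOIR and 12.3 to 28.1 in OIR and was not called (log2 fold change 0.75 ± 0.32 SE, adjusted p = 0.146).

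The OAS enzymes make the short adenylate chains that switch on RNase L, and OASL1 and OASL2 are their relatives. Of 5 members 3 rose. Oas1a ranged over 7.12 to 20.2 CPM in nonOIR (median 11.8) and 21.1 to 87.7 in OIR (median 29.7), without overlap, and rose 3.09-fold (log2 fold change 1.63 ± 0.29 SE, adjusted p = 0.00144). Oasl2 ranged over 7.94 to 30.2 CPM in nonOIR (median 18.8) and 35.0 to 153 in OIR (median 47.9), also without overlap. It rose 3.14-fold (log2 fold change 1.65 ± 0.32 SE, adjusted p = 0.00265). Oasl1 rose 3.47-fold at a lower level, from a median of 2.42 to 8.94 CPM (adjusted p = 0.0317), a call that omitting any of 7 single libraries ended (adjusted p up to 0.0743). Oas2 and Oas3 stayed below 12 CPM in every library and were not called, and the Oas2 value rested on OIR replicate 3, which held 11.8 CPM against at most 1.53 in the other OIR libraries (log2 fold change 0.65, or -0.76 without that library).

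Among sensors of nucleic acid, Zbp1, which binds Z-form nucleic acid and can trigger cell death, rose most. It ranged over 2.15 to 8.74 CPM in nonOIR (median 6.56) and 11.2 to 46.6 in OIR (median 19.6), without overlap (3.71-fold, log2 fold change 1.89 ± 0.34 SE, adjusted p = 0.00149). Dhx58 (LGP2) and Ifih1 (MDA5), both RNA helicases, rose 1.71-fold and 1.64-fold (adjusted p = 0.0364 and 0.0458). Omitting any of 10 and of 12 single libraries ended these calls (adjusted p up to 0.0728 and 0.0837). Ddx58 (RIG-I) ranged over 14.0 to 38.9 CPM in nonOIR and 23.0 to 49.0 in OIR, and Eif2ak2 (PKR) over 7.17 to 21.5 and 7.89 to 41.9. Neither was called, with log2 fold changes of 0.31 ± 0.21 and 0.29 ± 0.29 (SE).

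ISG15 is a ubiquitin-like protein attached to others, HERC6 is its ligase in mouse, USP18 removes it and also damps the type I receptor, and TRIM25 is a ligase that aids RIG-I. Isg15 ranged over 4.25 to 14.4 CPM in nonOIR (median 6.74) and 12.9 to 41.1 in OIR (median 24.3). Only OIR replicate 5 lay within the nonOIR range, and the rise was 3.14-fold (log2 fold change 1.65 ± 0.27 SE, adjusted p = 0.000830). Usp18 ranged over 12.2 to 24.5 CPM in nonOIR (median 15.1) and 24.2 to 46.8 in OIR (median 34.9), and rose 2.16-fold (log2 fold change 1.11 ± 0.17 SE, adjusted p = 0.000551). Again OIR replicate 5 alone lay within the nonOIR range. Trim25 rose 1.53-fold (adjusted p = 0.0426), a call that omitting any of 10 single libraries ended (adjusted p up to 0.0897). Herc6, at medians of 12.9 CPM in nonOIR and 17.0 in OIR, was not called (adjusted p = 0.140). Parp9 and Dtx3l, partners in ubiquitin and ADP-ribose transfer to histones, and Parp14, a related transferase, were not called. Their medians were 82.4, 76.6 and 23.3 CPM in nonOIR and 96.9, 70.4 and 30.0 in OIR. Their log2 fold changes were 0.30 ± 0.12, -0.11 ± 0.24 and 0.28 ± 0.25 (SE). Parp9 and Dtx3l start head to head on chromosome 16 with overlapping exons, and these libraries carry no strand information.

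Of 7 antiviral effectors 4 rose. Ifitm3, which blocks fusion of viruses with endosomes, ranged over 14.8 to 65.3 CPM in nonOIR (median 29.0) and 46.9 to 290 in OIR (median 78.3), with 5 OIR libraries above all nonOIR libraries. It rose 3.38-fold (log2 fold change 1.76 ± 0.37 SE, adjusted p = 0.00508). Rtp4, a chaperone of receptors that also restrains viruses, ranged over 24.0 to 67.9 CPM in nonOIR (median 38.6) and 62.8 to 141 in OIR (median 88.1) and rose 2.23-fold (log2 fold change 1.16 ± 0.21 SE, adjusted p = 0.00180), with OIR replicates 1, 2 and 5 inside the nonOIR range. Bst2 (tetherin), which holds budding virus at the cell surface, ranged over 85.4 to 127 CPM in nonOIR (median 96.4) and 113 to 311 in OIR (median 130). It rose 1.59-fold (log2 fold change 0.66 ± 0.19 SE, adjusted p = 0.0290), a call lost without OIR replicate 8 or without nonOIR replicate 1, 2, 4 or 7 (adjusted p up to 0.0569). Isg20, an RNA exonuclease, ranged over 0.985 to 3.97 CPM in nonOIR (median 2.47) and 3.42 to 9.66 in OIR (median 5.25), a 2.30-fold rise (log2 fold change 1.20 ± 0.31 SE, adjusted p = 0.0181). OIR replicates 2, 5 and 6 overlapped with nonOIR. The neighbours Rsad2 (viperin) and Cmpk2, which together make a chain-terminating nucleotide, just missed the threshold. Rsad2 ranged over 0.217 to 22.4 CPM in nonOIR (median 8.48) and 10.7 to 51.8 in OIR (median 33.0), with a log2 fold change of 1.604 ± 0.52 (SE, adjusted p = 0.0535). Cmpk2 stood at 1.46 ± 0.47 (SE, adjusted p = 0.0549). For both genes nonOIR replicate 8 was the lowest library, at 0.217 and 0.174 CPM. Mx1, a dynamin-like GTPase, stayed below 7 CPM in every library and was not called (adjusted p = 0.316).

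Among the schlafens, proteins that restrain growth and translation, Slfn2 ranged over 89.5 to 168 CPM in nonOIR (median 125) and 143 to 248 in OIR (median 197), and rose 1.51-fold (log2 fold change 0.60 ± 0.15 SE, adjusted p = 0.0153). The highest library was OIR replicate 7, and OIR replicates 1, 2 and 5 lay within the nonOIR range. The nonOIR lane means of Slfn2 were 110 CPM in the first lane and 163 in the second, against 171 and 238 in OIR. Slfn5, Slfn8 and Samd9l were not called, at log2 fold changes of 1.26 ± 0.44, 0.09 ± 0.26 and 1.01 ± 0.46 (SE). Slfn5 ranged over 1.56 to 14.5 CPM in nonOIR and 9.51 to 44.9 in OIR, Slfn8 over 21.7 to 58.0 and 18.4 to 63.9, and Samd9l over 0.403 to 9.47 and 2.79 to 22.7, with the highest OIR value of all 3 in OIR replicate 3. Of 3 guanylate-binding proteins, GTPases that attack the vacuoles of pathogens, Gbp2 rose 1.78-fold, from a median of 12.8 to 22.5 CPM (adjusted p = 0.0218). Gbp3 and Gbp7 were not called, at log2 fold changes of 0.34 ± 0.14 and 0.32 ± 0.36 (SE) and nonOIR medians of 21.1 and 26.9 CPM against 25.0 and 33.7 in OIR. Xaf1, a promoter of cell death, ranged over 9.80 to 22.3 CPM in nonOIR (median 14.9) and 20.9 to 44.5 in OIR (median 26.4) and rose 1.92-fold (log2 fold change 0.94 ± 0.18 SE, adjusted p = 0.00311), with OIR replicate 5 alone inside the nonOIR range. Sp100, a protein of nuclear bodies, ranged over 27.1 to 52.9 CPM in nonOIR (median 36.4) and 39.8 to 115 in OIR (median 60.03), a 1.69-fold rise (log2 fold change 0.76 ± 0.19 SE, adjusted p = 0.0157). Trim30a, a regulator of inflammatory signalling, rose 1.33-fold (adjusted p = 0.0325, up to 0.0589 on omitting single libraries, 8 of which end the call). The chemokine gene Cxcl10 was at 2.06 to 32.7 CPM in nonOIR and 7.22 to 42.0 in OIR and was not called (log2 fold change 1.13 ± 0.53 SE, adjusted p = 0.191). Its highest nonOIR value was in nonOIR replicate 6, without which it passed at a log2 fold change of 1.78. Tor3a, an ATPase of the endoplasmic reticulum, was at medians of 205 CPM in nonOIR and 183 in OIR (log2 fold change -0.03 ± 0.11 SE).

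**Figure D2:**
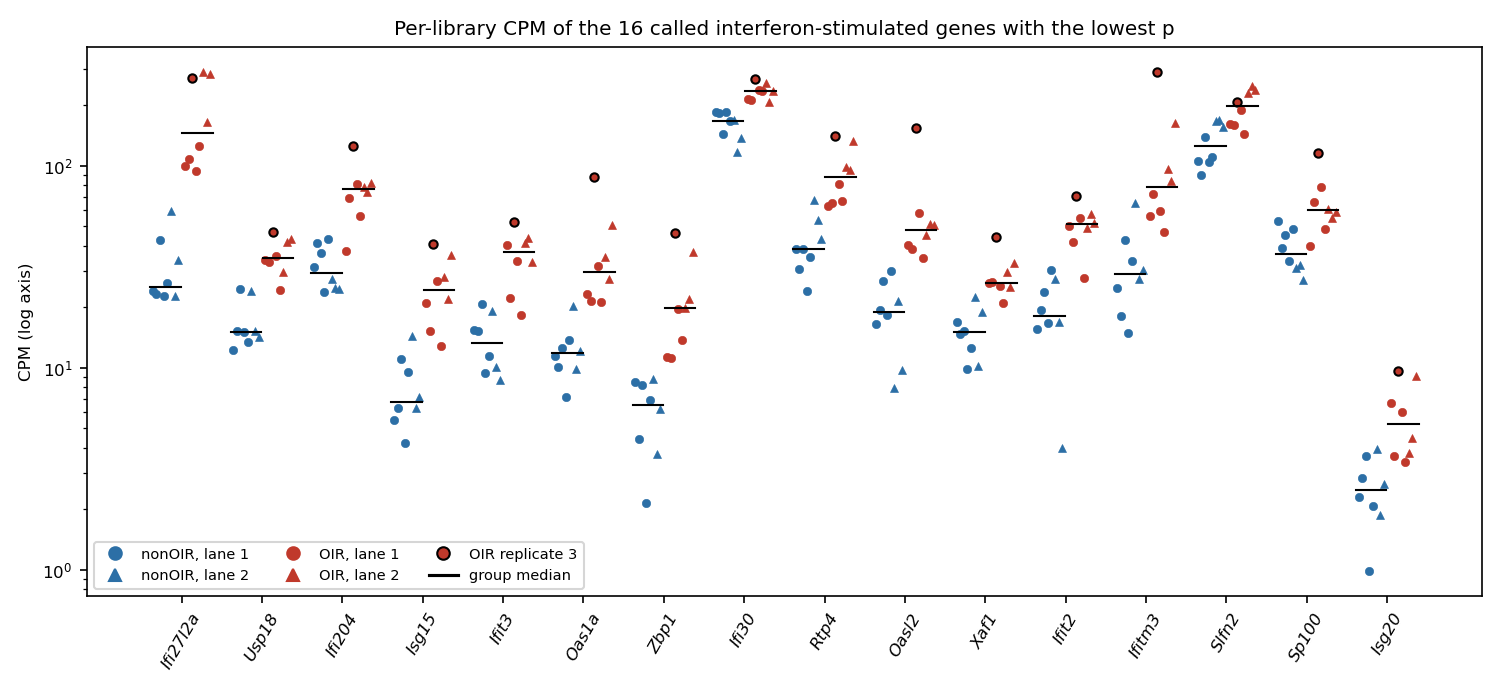
CPM in each library (y axis, log scale) for the 16 called genes with the lowest p (x axis); blue points are nonOIR and red points OIR libraries, circles the first and triangles the second lane code, bars the group medians, and the black outline OIR replicate 3. Ifi27l2a, Oas1a, Zbp1, Ifi30 and Oasl2 show no overlap between the groups, and the outlined library is the highest OIR library for most genes.

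Reads from near-identical or overlapping genes limit some of these values. Of all 50-base windows of the annotated transcripts (GENCODE M21), 57.6% of those of Oas1a were also found in Oas1g, 51.2% of those of Ifit3 in Ifit3b, and 14.8% of those of Ifi204 in Ifi211, so that counts of these 3 genes are uncertain. For Slfn8 the share in any other gene was 14.6%, and for Gbp7 12.7%. Oas1g itself rose (log2 fold change 2.09, adjusted p = 0.0105), as did Ifi211 (1.54, adjusted p = 0.0388, lost on leaving out any of 10 single libraries, with adjusted p up to 0.0811), and Ifit3b was not called (1.20, adjusted p = 0.109). Many members lie in clusters on the mm10 build. Ifit2 (34550694 to 34576419), Ifit3 (34583531 to 34588731) and Ifit1 (34640871 to 34650009) lie in a row on chromosome 19. Oas2, Oas3 and Oas1a lie together on chromosome 5 (120730333 to 120907521), as do Oasl2 and Oasl1 (114896936 to 114937915). Ifi27 (103434211 to 103440239) and Ifi27l2a (103442167 to 103443680) are adjacent on chromosome 12, and only the second changed by the test. Isg15 spans 156199424 to 156200818 on chromosome 4, Zbp1 173206612 to 173218923 on chromosome 2, Usp18 121245906 to 121270917 on chromosome 6 and Ifi30 70762774 to 70766663 on chromosome 8.

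Across libraries OIR replicate 3 stood apart. The summed CPM of the 45 genes ran from 1295 to 1728 in nonOIR and from 1932 to 3712 in OIR. OIR replicate 3 held the 3712, and the next highest was OIR replicate 8 with 2672. In the nonOIR group replicates 4 and 8 were each lowest for 13 members. OIR replicate 3 was the highest OIR library for 28 of the 45 members and the lowest for 1, Ifi27, where it held 29.9 CPM against 52.4 to 71.6 in the other OIR libraries. It exceeded the median of the other OIR libraries 14.1-fold for Oas2, 5.09-fold for Oas3, 4.11-fold for Slfn5, 4.00-fold for Ifitm3, 3.39-fold for Oasl2 and 3.19-fold for Oas1a. For Ifi30, Slfn2, Usp18 and Trim25 it lay near the others, at ratios of 1.14, 1.10, 1.37 and 0.985. Without OIR replicate 3 the members called higher numbered 18, and the median log2 fold change was 0.74. In that fit 1148 of 12657 genes were called, 63.8% of them higher. The calls lost were those of Oasl1, Ifih1, Dhx58, Trim25 and Trim30a. Over the 990 pairs of members, the median correlation of log2(CPM + 1) across libraries was 0.395 within OIR (8 libraries), 0.230 without OIR replicate 3 (7 libraries) and 0.242 within nonOIR (8 libraries). The share of positive correlations was 76.2%, 60.9% and 68.3%. These are descriptions over few libraries that share depth and scaling, other gene pairs were not compared, and the OIR value rests in part on OIR replicate 3.

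**Figure D3:**
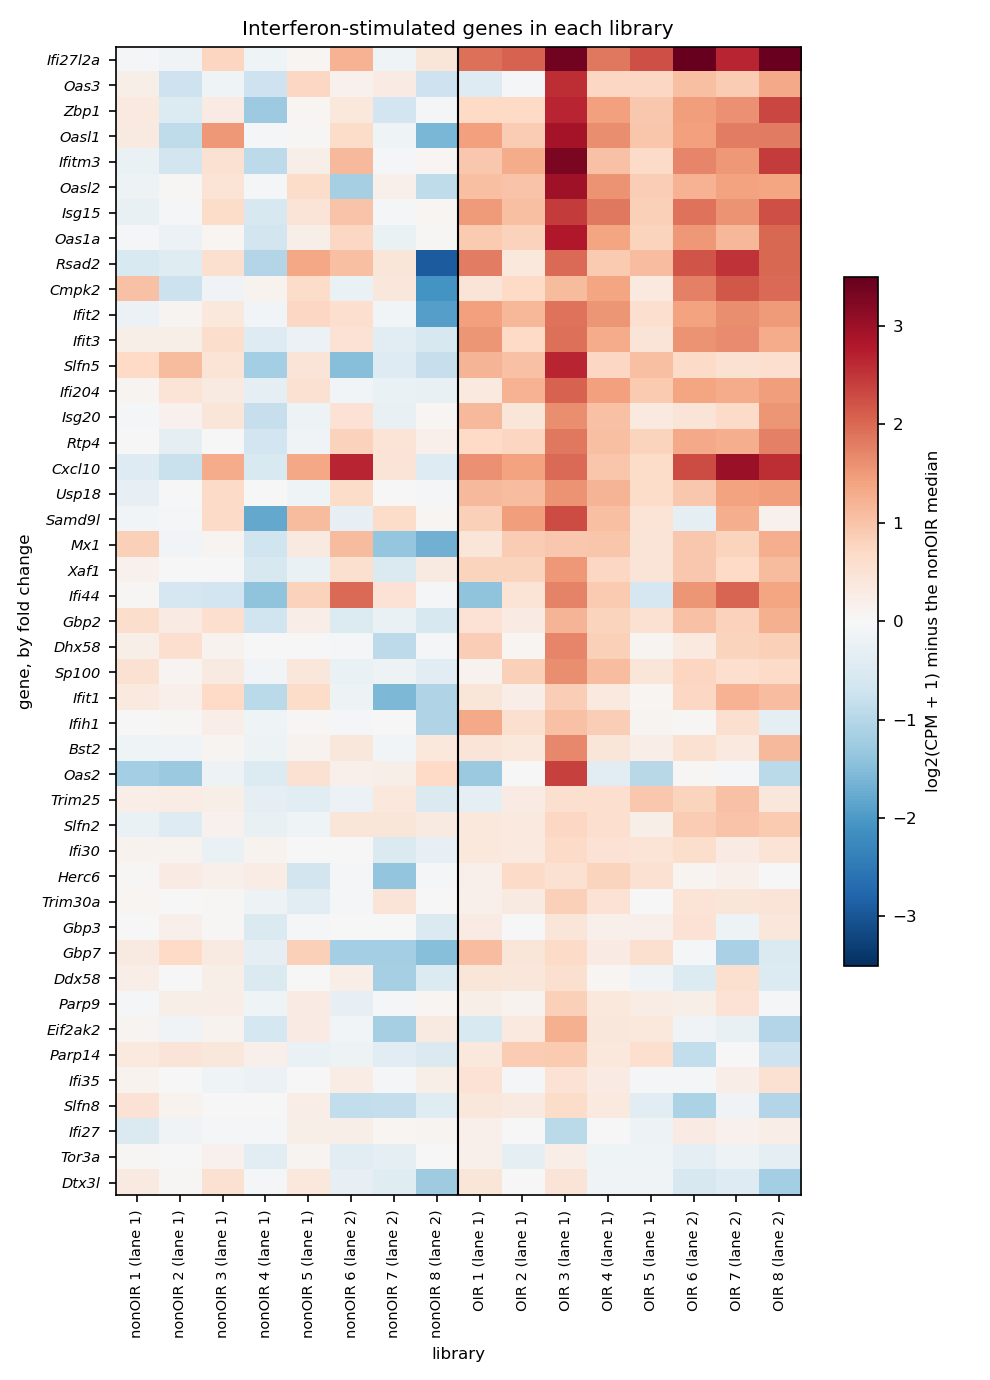
Log2(CPM + 1) of each of the 45 genes (rows, ordered by fold change) in each library (columns) minus the gene's nonOIR median; red is higher and blue lower, and the black line separates nonOIR on the left from OIR on the right. OIR replicate 3 is the highest OIR column for 28 of the 45 rows, and the lowest rows, such as Tor3a and Dtx3l, show no red block on the right.

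Markers of other cell types were set beside these values. The sort excluded cells with Ly6C or Ly6G. In OIR replicate 3 the summed level of 5 markers of border macrophages was 12.4 CPM and that of 6 monocyte markers 14.6 CPM, the lowest of the 8 OIR libraries for both lists. Over the groups, the border macrophage sum ran from 27.8 to 201 CPM in nonOIR and from 12.4 to 380 in OIR, and the monocyte sum from 6.47 to 72.0 and from 14.6 to 115, with Ly6c2 at 0 in all libraries. The medians were higher in OIR, at 148 against 84.5 CPM for the border macrophage sum and 41.3 against 19.2 for the monocyte sum. None of the 3 monocyte and 5 border macrophage markers tested was called. Plac8 just missed the threshold (log2 fold change 1.96, adjusted p = 0.0510), with F13a1 at 1.42 and Ccr2 at -0.06. The 5 border macrophage markers had log2 fold changes from 0.42 to 1.41. Of 4 markers of plasmacytoid dendritic cells, the professional makers of type I interferon, the sum ran from 81.0 to 117 CPM in nonOIR and from 73.9 to 110 in OIR, nearly all of it Tcf4, and neither of the 2 tested was called. Of 6 T and NK cell markers, Cd3e, Cd3d, Nkg7 and Gzmb were at 0 in every library. The sum of 6 cell division genes moved with the group, from 20.9 to 47.5 CPM in nonOIR and 57.4 to 336 in OIR, without overlap, and 5 of the 6 rose. Erythrocyte genes also moved with the group: the sum of 5 ran from 0 to 28.6 CPM in nonOIR and from 1.87 to 292 in OIR. Only 2 were tested, and these rose (Hbb-bs and Hbb-bt). Hba-a1, Hba-a2 and Alas2 did not pass the filter, at medians of 0, 0.021 and 0 CPM in nonOIR and 14.3, 11.3 and 1.66 in OIR. In OIR replicate 3 the erythrocyte sum was 89.1 CPM, within the range of the other OIR libraries. Its cell division sum was 266 CPM, at rank 2 of the 8 OIR libraries, and its sum of 4 neuronal markers was 3.48 CPM, the lowest. Of the markers of other retinal cells, Glul of Müller glia and astrocytes (log2 fold change -0.33, adjusted p = 0.0164) and Snap25 of neurons (-1.31, adjusted p = 0.0388) fell, 1 of 3 and 1 of 4 tested. The sum of the glial list ran from 329 to 393 CPM in nonOIR and 237 to 361 in OIR, and that of the neuronal list from 12.6 to 45.3 and 3.48 to 23.2. The part of monocytes, border macrophages, dividing cells, red cell RNA and other retinal cells in the rise of the interferon-stimulated genes was not tested.

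The rise was present under both lane codes. In the first lane (5 against 5 libraries) 14 members rose and 0 fell, where 2.2% of all genes rose and 1.13% fell (3.33% in either direction), and in the second (3 against 3) 20 rose and 0 fell, where 9.63% of all genes rose and 5.77% fell. Of these, 12 passed in both lanes, and 39 of 45 fold changes were positive in both. With lane as a covariate 25 members rose, where 9.68% of all genes did, and 0 fell, where 7.59% did. The difference of the OIR effect between lanes was tested as an interaction, and 0 of 45 members passed (0.496% of all genes did, 0.28% with the larger effect in one direction and 0.216% in the other), with 3 at an unadjusted p under 0.05. These were Ifit1 (unadjusted p = 0.00198, adjusted p = 0.102), Gbp2 (0.00974, adjusted p = 0.195) and Cmpk2 (0.0342, adjusted p = 0.325). Ifit1 stood at a log2 fold change of 0.14 in the first lane and 2.04 in the second, Gbp2 at 0.46 and 1.604, and Cmpk2 at 0.64 and 2.66. Of the 23 members called over all libraries, 19 passed in at least 1 lane, and Bst2, Oasl1, Isg20 and Trim30a in neither. For Slfn2, Rtp4, Ifitm3, Isg15 and Xaf1 the groups overlapped only between OIR libraries of the first lane and nonOIR libraries of the second. Within each lane every OIR library lay above every nonOIR library for these genes. The share of all genes for which this held was not counted.

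**Figure D4:**
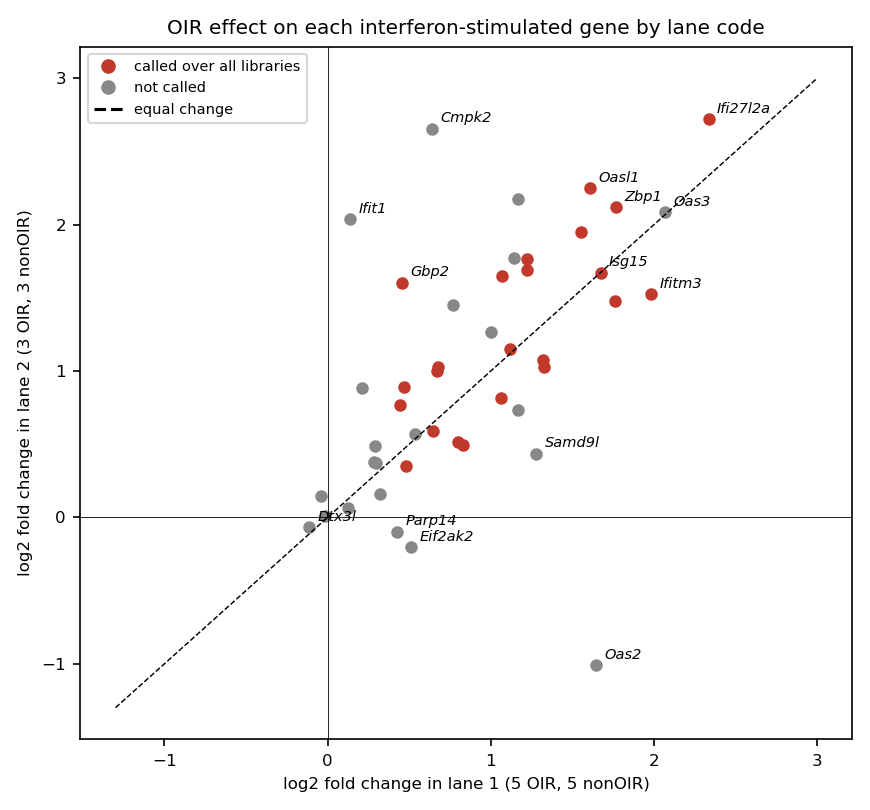
Log2 fold change in the first lane (x axis) against that in the second (y axis), 1 point for each of the 45 genes; red points were called over all libraries, and the dashed line marks equal change. Of the 45 points 39 are positive on both axes, Ifit1, Cmpk2 and Gbp2 lie well above the line, and Oas2 lies far below it.

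Upstream of these genes, interferon transcripts were rare. None of 21 interferon genes passed the filter on low counts, and 15 had 0 counts in every library, which allows up to 3 counts in each, for counting error only. Ifnb1 counts totalled 149 in OIR and 20 in nonOIR. OIR replicate 7 held 83 of them, OIR replicate 4 held 38 and OIR replicate 2 held 24, and OIR replicates 1, 5 and 6 held 0. In nonOIR, replicates 2, 3 and 6 held 5, 6 and 9. OIR replicate 7 also held all counts of Ifna2 (29), Ifna11 (7) and Ifna14 (2). OIR replicate 3, highest for the interferon-stimulated genes, held 1 count of Ifnb1 and 2 of Ifna16. The library with the most Ifnb1 counts was not the one with the highest sum of interferon-stimulated genes. OIR replicate 7 was the highest OIR library for 8 members, namely Rsad2, Cmpk2, Cxcl10, Ifit1, Ifi44, Ddx58, Slfn2 and Trim25. It was the lowest for 4, namely Ifi30, Slfn5, Gbp3 and Gbp7. OIR replicate 3 was the highest for 28 members and the lowest for 1. OIR replicates 4 and 2 were the highest for 1 and 0. Whether interferon transcripts and interferon-stimulated genes go together across libraries was not tested. RNA of cells outside the sort was not measured. Amplified reads without molecular identifiers are not counts of independent molecules.

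Of 5 receptor genes tested, 0 rose and 2 fell, where 6.39% and 4.56% of all genes did. Ifngr1, the ligand-binding chain of the interferon gamma receptor, ranged over 1938 to 2264 CPM in nonOIR and 1249 to 1715 in OIR, without overlap, a fall to 0.710 of the nonOIR level (adjusted p = 0.000590). Ifnar2 fell to 0.818 (adjusted p = 0.0290), a call lost without any of 6 single libraries (OIR replicates 3, 4, 6, 7 and 8 and nonOIR replicate 4, adjusted p up to 0.0735). Ifnar1 was at medians of 152 CPM in nonOIR and 154 in OIR and was not called. Of 12 transducers and factors 1 rose and 1 fell. Irf7, the factor that amplifies type I interferon responses and is itself interferon-induced, ranged over 6.04 to 25.2 CPM in nonOIR (median 14.0) and 27.7 to 160 in OIR (median 40.7), without overlap. It rose 3.95-fold (log2 fold change 1.98 ± 0.37 SE, adjusted p = 0.00229), with the 160 CPM in OIR replicate 3 and an adjusted p of 0.0596 in the first lane. Irf2, an opposing factor, fell to 0.712 (adjusted p = 0.0462), and omitting any of 11 single libraries ended the call (adjusted p up to 0.101). Stat2, Irf9, Jak1 and Tyk2 were not called, at log2 fold changes of 0.33 ± 0.34, -0.11 ± 0.09, -0.06 ± 0.20 and 0.38 ± 0.17 (SE).

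Of 10 sensors and adaptors tested, 1 rose and 2 fell. Ikbke, a kinase that activates IRF factors, ranged over 0.519 to 3.77 CPM in OIR and was at most 0.0434 in nonOIR, with 406 counts against 2 (adjusted p = 2.38e-05). It passed the filter on low counts only through its OIR values, so its p-value is not independent of the filter. Tmem173 (STING), the adaptor of cytosolic DNA sensing, ranged over 843 to 1158 CPM in nonOIR and 423 to 751 in OIR, without overlap, a fall to 0.582 (adjusted p = 0.000335). Tlr3, an endosomal sensor of double-stranded RNA, fell to 0.777 (adjusted p = 0.0405), and omitting any of 11 single libraries ended the call (adjusted p up to 0.0812). Of 10 restraints tested, Rnaseh2b, a subunit of the enzyme that clears RNA from DNA, rose 1.59-fold (adjusted p = 0.0161) and Pias1, an inhibitor of STAT signalling, fell to 0.769 (adjusted p = 0.0155). Over the 37 pathway genes tested 3 rose, Ikbke among them, and 6 fell, where 6.39% and 4.56% of all genes did. Their median log2 fold change was -0.06, against -0.03 over all genes. The share that rose is near that of all genes, and the share that fell is above that of all genes. Among the falls, those of Ifnar2, Irf2 and Tlr3 were each lost on some single omissions.

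**Figure D5:**
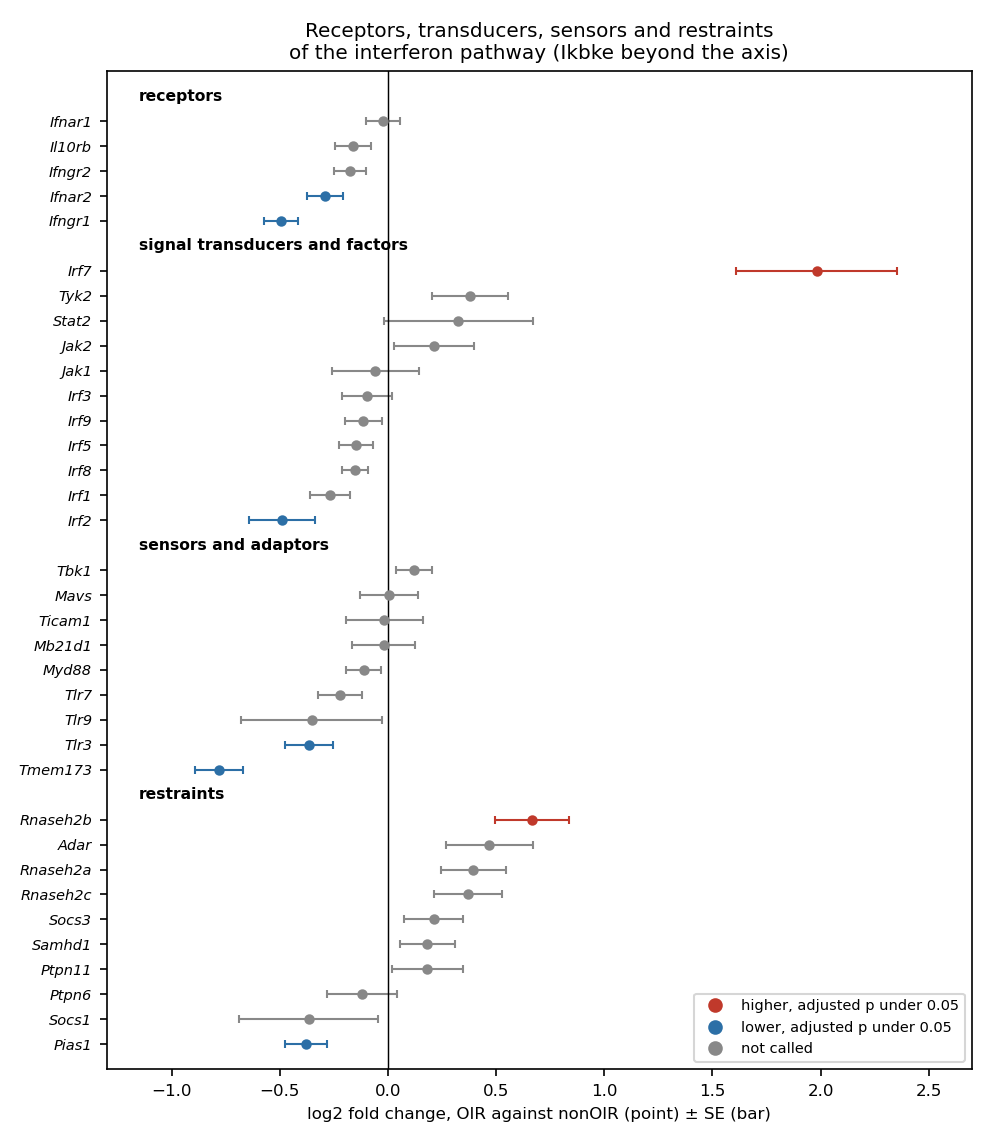
Log2 fold change in OIR against nonOIR (x axis, point) with its standard error (bar) for receptors, transducers, sensors and restraints of the interferon pathway (y axis); red passed as higher, blue as lower, grey did not pass, and Ikbke lies beyond the axis. Irf7 is the point farthest to the right, and Tmem173 and Ifngr1 are among the points to the left.

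Some interferon-responsive genes outside the 45 also rose, on a list chosen with earlier results of these data known. Oas1g and Ifi211, among those that rose, share transcript sequence with Oas1a and Ifi204, so their calls are not independent of these members. Of 67 tested of a list of 80, 19 rose and 1 fell, where 6.39% and 4.56% of all genes did, and their median log2 fold change was 0.40. Ccl12, a monocyte-attracting chemokine, rose 1.89-fold, from a median of 217 to 416 CPM (adjusted p = 0.000112), and Ifi207, of the same PYHIN family as Ifi204, 3.29-fold, from 8.99 to 30.2 CPM (adjusted p = 0.00162). Neither overlapped between the groups. Ifitm2 rose 3.48-fold (adjusted p = 0.00280), Parp12 1.36-fold, Epsti1 1.54-fold and Irgm1 1.32-fold (adjusted p = 0.00359, 0.00421 and 0.00790). The member of this list that fell was Irgm2, an immunity-related GTPase chosen here after its value was seen (log2 fold change -0.37, adjusted p = 0.0445, up to 0.0962 on omitting single libraries, 11 of which end the call).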

How the data were processed

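RNA was measured in 8 OIR and 8 nonOIR libraries of sorted microglia. Per the labels' protocols, libraries were made from 750 pg of total RNA by a SMARTer v4 and Nextera XT workflow with 12 cycles of cDNA amplification, which does not mark strand. The authors deposited raw counts for each gene, as whole numbers, per the file headers. Tools listed in the submitters' processing notes, without roles, are STAR 2.6.0b-1, featureCounts 1.6.2, FastQC 0.72 and DESeq2 2.11.40.2, with the build mm10. For the annotation the sources used here give nothing. The authors' normalized signal, also deposited, equals the count divided by a constant of each library and was not used. The authors' deposited table also holds log2 fold changes, a Wald score and p-values, used only to compare calls.

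After filterByExpr and TMM scaling, the groups were compared by the two-sided quasi-likelihood test of edgeR 4.0.16 under R 4.3.3 (glmQLFit, robust, and glmQLFTest), without covariates. Adjusted p-values (Benjamini-Hochberg, 12496 genes, threshold 0.05) are from this test unless stated otherwise. The biological coefficient of variation was 40.3%. Alternatives were other scalings, no filter, DESeq2 1.42.0, lane, a replicate block, each lane alone and the omission of each library. Same-numbered libraries did not pair (closing section). No pair of libraries within a group looked like 1 library deposited again (smallest chi-square per gene 15.7 against counting noise), which says nothing of whether samples are independent. Exon lengths came from GENCODE M21, which held 54495 of the gene identifiers.

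The members and lists were chosen with earlier results of these data known. Values in full were given for the 16 called members with the lowest p and the 4 with the highest CPM per kb, and outside the members for up to 6 genes of a list by p. All 45 members are accounted for. Results of some genes outside the members are not reported here.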

Additional observations from a re-analysis of the deposited data

Results flagged for a closer look

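Single libraries stood far from the rest of their group, by the gap to the nearest library as a share of the group's range on log2(CPM + 1), in 8 of 90 sets (45 genes in 2 groups of 8), and chance alone flags about 1 in 20. In OIR replicate 3, Oasl1 held 24.9 CPM, Oasl2 152.8 CPM, Oas2 11.8 CPM and Slfn5 44.9 CPM, all far above the other OIR libraries, and Ifi27 held 29.9 CPM, far below them. In nonOIR replicate 8, Ifit2 held 4.00 CPM and Ifih1 9.82 CPM, and in nonOIR replicate 7 Dhx58 held 11.5 CPM, all far below the rest of the group.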

How the results depend on the processing

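The number of members called higher stayed between 20 and 26 under the other scalings, no filter, DESeq2, lane as a covariate and the replicate block, and between 17 (without nonOIR replicate 4) and 23 when single libraries were left out, with 0 called lower under all of these. Over the whole table, genes called in either direction numbered from 977 of 29793 (no filter) to 2159 of 12496 (lane as a covariate). Over single omissions they numbered from 935 of 12655 (without OIR replicate 6) to 1556 of 12685 (without OIR replicate 1). Members called higher numbered 14 in the first lane alone (5 against 5 libraries), where 2.2% of all genes rose. They numbered 20 in the second (3 against 3), where 9.63% did, and the cause of the difference was not tested. Of the 23 called members, 17 kept the call whichever library was left out. Any of 5 omissions ended it for Bst2, 7 for Oasl1, 8 for Trim30a, 10 for Dhx58, 10 for Trim25 and 12 for Ifih1 (adjusted p up to 0.0897). The replicate block gave 24 members called higher, losing Dhx58 and Trim25 and gaining Rsad2, Slfn5 and Cxcl10. It called 1679 of 12496 genes, 57.5% of them higher. Same-numbered libraries correlated between -0.0156 and 0.202 in their deviations from the group means, and only replicates 6 and 7 correlated best with their own number, so the numbers were not taken as pairs. Of the 22 members not called, 7 changed sign under at least 1 setting. Oas2 was at -1.01 in the second lane alone, -0.21 with the replicate block and -0.76 without OIR replicate 3. In the second lane alone Eif2ak2 was at -0.20, Parp14 at -0.0964 and Tor3a at 0.00669, and Tor3a was at 0.0426 under library-size scaling. Ifi27 was at -0.00828 under upper-quartile scaling, -0.00870 with the replicate block and -0.0409 in the first lane alone. Over single omissions Oas2 ran from -0.757 to 0.901, Ifi27 from -0.0365 to 0.129, Tor3a from -0.0749 to 0.0153, Dtx3l from -0.230 to 0.00350 and Slfn8 from -0.0263 to 0.214. The cause of these turns was not tested. Pathway genes called numbered 6 to 13. Other interferon-responsive genes called numbered 13 with no filter, where more genes are tested, and 13 to 22 over single omissions (13 without nonOIR replicate 1). Whether depth limits the members at low CPM was not tested.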
